A study of Mus musculus with 6 samples.

Results

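Cytosolic RNA sensing by the RIG-I-like receptors was examined in 4T1 cells, a line from a mouse mammary carcinoma that is widely used to model triple-negative tumours. The rule named 8 genes: Rigi (listed under its current symbol; the older one is Ddx58), Ifih1, Dhx58, Mavs, Trim25, Adar, Zbp1 and Eif2ak2. Of these, 7 had a row among the 12656 genes of the expression table and all 7 were tested; Zbp1 was not analysed here. Polyadenylated RNA was sequenced from 3 libraries of 4T1 cells given LP-184, a DNA-damaging compound, for 48 h and from 3 libraries of 4T1 cells given DMSO, the solvent. The labels name no other agent or genotype for either group and no dose of LP-184, and the cells were a line in culture, without the immune and stromal cells of a tumour. Whether each library came from its own culture is likewise unstated, so a p-value here measures only library-to-library spread, which may be technical.

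RIG-I, MDA5 and LGP2, encoded by Rigi, Ifih1 and Dhx58, are helicases that bind double-stranded RNA in the cytosol. RIG-I prefers short RNA with a 5′ triphosphate or diphosphate end and MDA5 long duplexes. Both carry caspase recruitment domains through which they reach MAVS on the outer mitochondrial membrane, while LGP2 lacks these domains and modulates the other receptors. MAVS passes the signal to the kinases TBK1 and IKKε and on to IRF3, IRF7 and NF-κB, which switch on interferon genes; interferon in turn raises transcription of the receptors. ADAR edits adenosines in cellular duplexes and so keeps them from being sensed, and PKR, encoded by Eif2ak2, phosphorylates eIF2α when it binds double-stranded RNA.

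The libraries held 18952393 to 22471753 reads with LP-184 and 18864368 to 21585323 reads with DMSO, summed over the genes of the table. Values are CPM, read counts scaled by the authors to a size per library that was not the plain sum of these reads. That size was 1.007 to 1.016 times the sum in the LP-184 libraries and 0.984 to 0.994 times it in the DMSO libraries. The level of a gene in bulk RNA does not tell fewer cells of a type from less RNA per cell. All 5 mammary carcinoma markers were measured, with a summed level of 2327 to 2344 CPM in the LP-184 libraries and 2576 to 2602 CPM in the DMSO libraries; the keratin genes Krt8 and Krt18 were lower with LP-184, and Epcam, Cdh1 and Krt14 were higher. Of the receptors that triple-negative tumours lack, Pgr was not analysed here and the other pair was detected: Esr1 had 0.381 ± 0.169 CPM with LP-184 and 10.5 ± 1.11 CPM with DMSO, and Erbb2 30.7 ± 2.23 CPM with LP-184 and 41.5 ± 0.506 CPM with DMSO (SD, n = 3 each). Of 7 leukocyte markers, Cd68 and Lyz2 were measured, with a summed level of 29.0 to 35.1 CPM with LP-184 and 11.2 to 12.3 CPM with DMSO. Cd68, a lysosomal protein that macrophages hold in quantity, had 31.3 ± 3.36 CPM with LP-184 and 10.2 ± 0.547 CPM with DMSO (SD, n = 3 each), whereas Lyz2, the defining myeloid lysozyme, had 0 reads in each LP-184 library, which allows up to 0.157 CPM in the shallowest of them for counting error only, and 1.62 ± 0.337 CPM with DMSO. Of 4 fibroblast markers Pdgfra was measured (8.12 to 10.3 CPM with LP-184, 6.37 to 7.62 CPM with DMSO), and none of 3 endothelial markers was analysed here. What these marker differences contribute to the results that follow was not tested.

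All 3 receptor genes rose with LP-184: Dhx58 4.56-fold, Rigi 2.79-fold and Ifih1 2.01-fold. The adaptor gene Mavs and the ubiquitin ligase gene Trim25 rose by about the same factor, 1.59-fold and 1.61-fold, and the RNA editing gene Adar rose 2.18-fold. Eif2ak2 did not pass the test, at 1.05-fold with a 95% interval of 0.961 to 1.14. By limma with Benjamini-Hochberg adjustment over 11931 genes, 6 of the 7 measured genes were higher at an adjusted p under 0.05 and 0 lower (at an unadjusted p under 0.05 also 6 higher and 0 lower, and 0 lower by limma's voom on recovered reads), where 38.3% of all genes tested were higher, 40.0% lower and 78.3% one or the other. At a change of 2-fold or more, 4 of the 7 were higher, against 8.08% of all genes tested. Ifih1 lay at this cutoff, with a 95% interval of 1.76 to 2.30, and the interval of Adar began at 1.998. With a library left out, the log2 fold change of Ifih1 went down to 0.94, which is below 2-fold. The LP-184 and DMSO libraries did not overlap for these 6 genes, where 38.9% of all genes tested were higher without overlap and 79.1% without overlap in either direction. The median log2 fold change was 1.01 over the 7 genes and -0.01 over all genes tested. Summed over the 7 genes, the level was 383 to 386 CPM with LP-184 and 219 to 235 CPM with DMSO, and Trim25 made up 48.1% of it with LP-184 and 50.0% with DMSO.

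**Figure D1:**
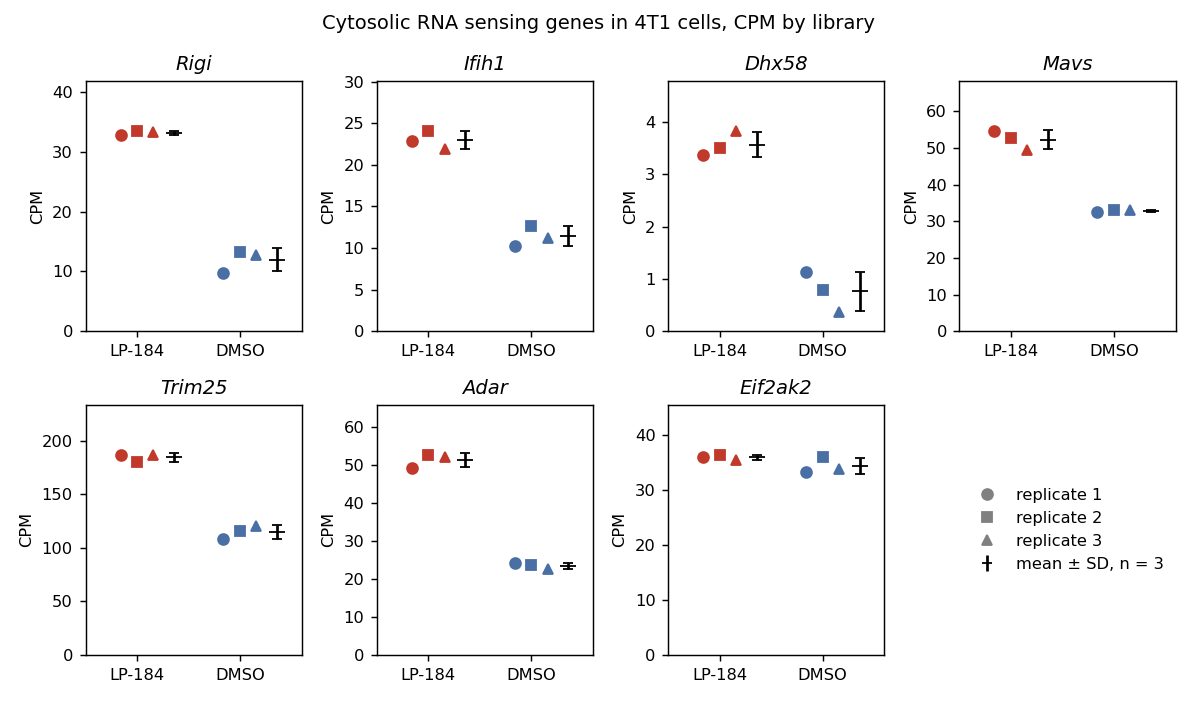
CPM of each cytosolic RNA sensing gene (vertical axis, from 0) in the 3 LP-184 and 3 DMSO libraries of 4T1 cells; symbols mark the replicate number and black bars the mean ± SD (n = 3 each). For Rigi, Ifih1, Dhx58, Mavs, Trim25 and Adar every LP-184 library lies above every DMSO library, while for Eif2ak2 the groups overlap.

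Rigi, the sensor of RNA ends (chromosome 4, 40203773 to 40239828 in GRCm38, reverse strand), had 32.8, 33.4 and 33.2 CPM in LP-184 replicates 1 to 3, against 9.76, 13.3 and 12.7 CPM in DMSO replicates 1 to 3. The LP-184 libraries lay within 1 CPM of each other, and DMSO replicate 1 was the lowest library. This was a log2 fold change of 1.48 ± 0.09 (SE, n = 3 each; limma adjusted p = 2.35e-16), and the gap between the lowest LP-184 library and the highest DMSO library was 1.30 on the log2 scale. The coefficient of variation between libraries was 1.03% with LP-184 and 15.9% with DMSO, where read counting alone gives 3.80% and 6.52%. Without DMSO replicate 1 the log2 fold change was 1.34.

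Ifih1, the sensor of long duplexes (chromosome 2, 62595798 to 62646255, reverse strand), had 22.9, 24.0 and 21.9 CPM with LP-184, against 10.3, 12.7 and 11.2 CPM with DMSO. The groups did not overlap, and DMSO replicate 1 was again the lowest library. On the log2 scale Ifih1 rose by 1.01 ± 0.10 (SE, n = 3 each; limma adjusted p = 1.08e-11). With DMSO the levels of Rigi and Ifih1 lay close together (11.9 ± 1.89 and 11.4 ± 1.20 CPM, SD), and with LP-184 they were 33.1 ± 0.341 and 22.9 ± 1.07 CPM.

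Dhx58, the gene of the receptor without recruitment domains (chromosome 11, 100694884 to 100704271, reverse strand), had the lowest level and the largest fold change of the 7 genes. It had 3.37, 3.50 and 3.83 CPM with LP-184, against 1.13, 0.792 and 0.375 CPM with DMSO. These rest on 77, 73 and 73 reads with LP-184 and on 21, 17 and 7 reads with DMSO. No DMSO library reached the lowest LP-184 library. On the log2 scale Dhx58 rose by 2.19 ± 0.30 (SE, n = 3 each; limma adjusted p = 3.8e-08), with a 95% interval of 1.59 to 2.79, the widest of the 7 genes. The size depended on how low values were scaled: on the log2(CPM + 1) scale it was 1.39. An annotated antisense gene, Dhx58os, shares 2637 bases with Dhx58, and no source used here says whether counting used strand, so reads of the pair cannot be told apart.

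Windows of 250 bases before the annotated start, where interferon-responsive elements are usually found, were searched. They were taken from RefSeq (GRCm38.p6), where 6 of the 7 genes matched by symbol (not Dhx58). Shown are Rigi and Ifih1, the receptor genes with a window, Mavs, their adaptor, and Eif2ak2, the gene that did not pass the test; each reads 5′ to 3′ on the gene's strand and ends at the base before the start. Capitals mark matches to AANNGAAA, the core bound by interferon regulatory factors, and to the core of the interferon-stimulated response element, which is a pair of GAAA with NN between them and so contains AANNGAAA.
Rigi, chr4:40239826-40240075, reverse strand: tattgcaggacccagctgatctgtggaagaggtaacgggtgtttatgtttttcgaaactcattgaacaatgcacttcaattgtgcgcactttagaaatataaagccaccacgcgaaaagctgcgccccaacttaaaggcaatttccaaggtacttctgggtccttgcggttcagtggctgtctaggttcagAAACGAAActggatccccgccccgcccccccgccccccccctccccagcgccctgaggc
Ifih1, chr2:62646256-62646505, reverse strand: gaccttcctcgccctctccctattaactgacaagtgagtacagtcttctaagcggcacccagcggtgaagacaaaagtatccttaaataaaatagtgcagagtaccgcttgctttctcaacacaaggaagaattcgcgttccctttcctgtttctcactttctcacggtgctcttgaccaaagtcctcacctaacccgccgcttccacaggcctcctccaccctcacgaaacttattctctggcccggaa
Mavs, chr2:131233813-131234062, forward strand: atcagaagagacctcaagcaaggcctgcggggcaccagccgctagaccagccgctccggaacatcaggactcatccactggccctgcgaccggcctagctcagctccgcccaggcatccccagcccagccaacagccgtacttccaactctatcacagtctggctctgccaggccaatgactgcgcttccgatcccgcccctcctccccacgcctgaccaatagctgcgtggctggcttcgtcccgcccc
Eif2ak2, chr17:78882573-78882822, reverse strand: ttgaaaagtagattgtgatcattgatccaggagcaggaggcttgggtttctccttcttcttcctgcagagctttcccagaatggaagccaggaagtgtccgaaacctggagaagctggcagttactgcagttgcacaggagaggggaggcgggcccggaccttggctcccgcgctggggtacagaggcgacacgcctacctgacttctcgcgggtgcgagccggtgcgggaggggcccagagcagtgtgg
Both strands were searched, and AANNGAAA was chosen after the Rigi window had been read. The Rigi window held 1 match to AANNGAAA (AAACGAAA), beginning 59 bases before the start, a motif found in 21.3% of 32851 windows of this length. The response element core, in 2.98% of windows, was in none of the windows of these 6 genes. The windows of Ifih1, Mavs, Trim25 and Eif2ak2 and the 3 windows of Adar held neither motif, which says only that these letters are not in those windows.

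Trim25 and Mavs, signalling partners of the receptors, rose less than the 3 receptor genes. Trim25, a ubiquitin ligase first tied to RIG-I through chains on its recruitment domains (chromosome 11, 88999376 to 89020293, forward strand), had 187, 179.9 and 187 CPM with LP-184, against 108, 116 and 121 CPM with DMSO. It was the most abundant of the 7 genes, and its groups did not overlap. On the log2 scale Trim25 rose by 0.69 ± 0.04 (SE, n = 3 each; limma adjusted p = 8.02e-19), with a 95% interval of 0.61 to 0.76.

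Mavs, the mitochondrial adaptor (chromosome 2, 131234063 to 131248025, forward strand), had 54.6, 52.7 and 49.4 CPM with LP-184, against 32.5, 33.0 and 33.0 CPM with DMSO. The DMSO libraries lay within 1 CPM of each other and below every LP-184 library. This gave a log2 fold change of 0.67 ± 0.06 (SE, n = 3 each; limma adjusted p = 5.82e-13), with a 95% interval of 0.55 to 0.78.

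Adar, whose product converts adenosine to inosine in double-stranded RNA (chromosome 3, 89715022 to 89753446, forward strand), had 49.1, 52.6 and 52.0 CPM with LP-184, against 24.1, 23.7 and 22.6 CPM with DMSO. The lowest LP-184 library was more than 1 log2 unit above the highest DMSO library (gap 1.024). The log2 fold change was 1.12 ± 0.06 (SE, n = 3 each; limma adjusted p = 3.99e-18). From knowledge of the human and mouse genes, Adar makes a short constitutive and a long interferon-inducible protein from different start sites, and gene-level reads do not separate them. Its annotated span shares 7252 bases with Chrnb2 on the other strand, which had 1.14 CPM with LP-184 and 0.236 CPM with DMSO.

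Eif2ak2, the gene of PKR (chromosome 17, 78852564 to 78882573, reverse strand), had 35.97, 36.4 and 35.4 CPM with LP-184, against 33.1, 36.02 and 33.8 CPM with DMSO. The groups overlapped, since DMSO replicate 2 lay above LP-184 replicates 1 and 3. The log2 fold change of Eif2ak2 was 0.07 ± 0.06 (SE, n = 3 each; limma adjusted p = 0.322), with a 95% interval of -0.06 to 0.19, which leaves out a change of 2-fold in either direction. Centring each library on its median gave 0.15 with an adjusted p of 0.0217, past the threshold, and quantile normalization 0.14 with an adjusted p of 0.0359; over 17 alternatives the adjusted p lay between 0.0217 and 0.954. The gene shares 532 annotated bases with the noncoding gene Gm26637 on the other strand.

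**Figure D2:**
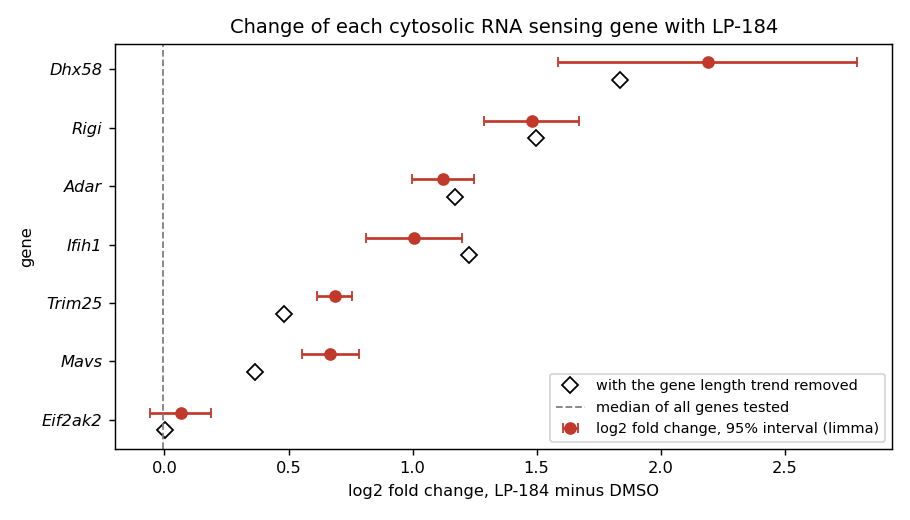
Log2 fold change, LP-184 minus DMSO, of the 7 measured sensing genes, with 95% intervals from limma (circles, n = 3 each) and the value after the trend of fold change with gene span was removed (diamonds); the dashed line is the median of all genes tested. Dhx58 is highest at 2.19 with the widest interval, Trim25 and Mavs lie together near 0.7, and the interval of Eif2ak2 holds 0.

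In the authors' deposited table, the log2 fold changes were 1.47 for Rigi, 1.00 for Ifih1, 2.21 for Dhx58, 0.67 for Mavs, 0.68 for Trim25, 1.12 for Adar and 0.06 for Eif2ak2. The adjusted p of Eif2ak2 in the authors' deposited table was 0.367. Each of these log2 fold changes lay within 0.02 of the value computed here from the log2 CPM.

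Over the range of spans that the 7 genes cover, the trend of fold changes fell with gene span. Each gene was therefore also read against the trend at its own span. The 7 genes cover between 9.39 kb (Dhx58) and 50.5 kb (Ifih1). The trend lay at 0.35 at the span of Dhx58, 0.30 at that of Mavs and 0.20 at that of Trim25, the 3 shortest, and at -0.22 at that of Ifih1, the longest. With the trend removed, the log2 fold change was 1.84 for Dhx58, 1.497 for Rigi, 1.23 for Ifih1, 1.17 for Adar, 0.48 for Trim25, 0.36 for Mavs and 0.00 for Eif2ak2. The 6 genes called higher stayed called, and Mavs was the only one of them to move by over 1.5 times, to 0.36 against 0.67.

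**Figure D3:**
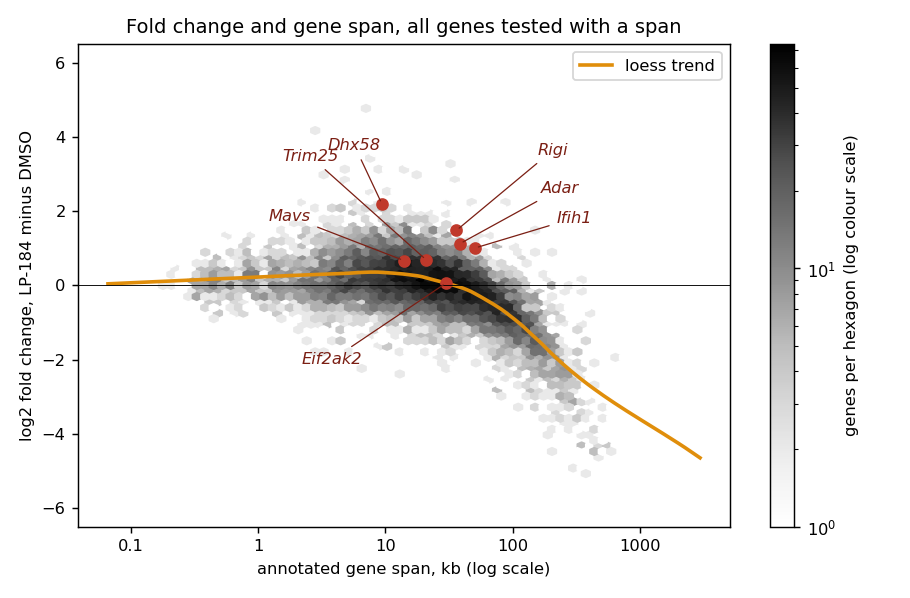
Log2 fold change, LP-184 minus DMSO, against annotated gene span in kb (log scale) for 11467 genes tested with a span; the shade of a hexagon is the number of genes in it, the line the loess trend and red points the 7 sensing genes. Rigi, Adar and Ifih1 lie well above the trend at 36.1 to 50.5 kb and Eif2ak2 lies on it.

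Levels were compared between genes per kb of annotated exon, a scale on which longer transcripts do not count more. With LP-184 the order was Trim25 (32.1 ± 0.709 CPM per kb, SD, n = 3), Mavs (15.6 ± 0.784), Eif2ak2 (7.02 ± 0.0922), Adar (6.31 ± 0.234), Rigi (4.70 ± 0.0483), Ifih1 (2.81 ± 0.132) and Dhx58 (1.09 ± 0.0713 CPM per kb), and no neighbours overlapped. With DMSO the order was the same, at 19.96 ± 1.06 CPM per kb for Trim25, 9.81 ± 0.0910 for Mavs, 6.71 ± 0.294 for Eif2ak2, 2.89 ± 0.0966 for Adar, 1.69 ± 0.269 for Rigi, 1.40 ± 0.147 for Ifih1 and 0.234 ± 0.115 CPM per kb for Dhx58. There Rigi and Ifih1 overlapped and did not differ beyond their spread. Exon length is the union over annotated transcripts, which can exceed that of the transcripts made in these cells.

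**Figure D4:**
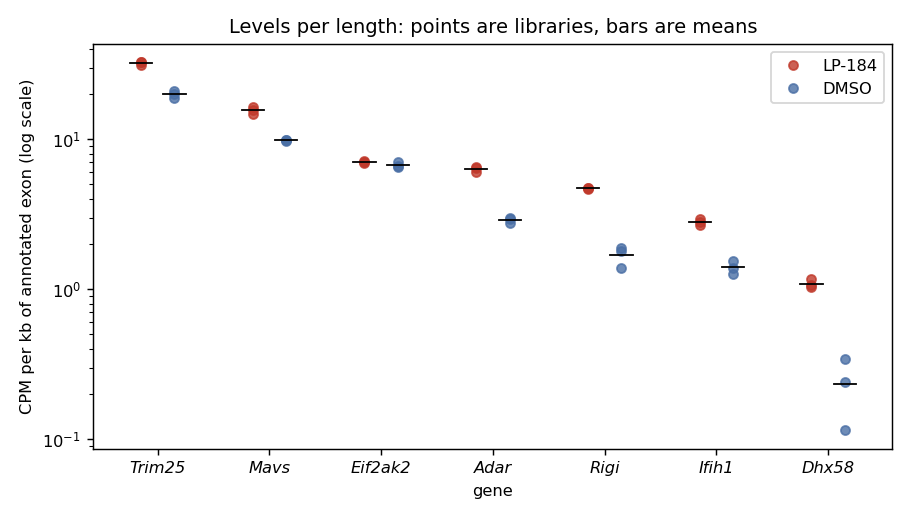
Level of each sensing gene in CPM per kb of annotated exon (log scale) by library, LP-184 left and DMSO right of each gene name, with bars at the means (n = 3 each). The order of the genes is the same in both groups, and Adar lies close below Eif2ak2 with LP-184 (6.31 against 7.02 CPM per kb) but far below it with DMSO (2.89 against 6.71 CPM per kb).

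Balance between the genes was followed by 7 log2 ratios of CPM within each library, compared by an exact permutation test over libraries, two-sided, which cannot go below p = 0.1 with 3 against 3. The log2 ratio of Eif2ak2 to Adar was -0.45, -0.53 and -0.55 in the LP-184 libraries and 0.46, 0.60 and 0.58 in the DMSO libraries, so the sign differed between the groups; the difference was -1.06. The ratio of Ifih1 to Rigi was -0.53 ± 0.06 with LP-184 and -0.06 ± 0.13 with DMSO (SD, n = 3 each), a difference of -0.47. The ratio of Rigi to Mavs was -0.65 ± 0.08 with LP-184 and -1.46 ± 0.23 with DMSO, a difference of 0.81, and that of Ifih1 to Mavs differed by 0.34. The ratio of Trim25 to Rigi was 2.47 ± 0.04 with LP-184 and 3.27 ± 0.18 with DMSO, a difference of -0.79, and that of Dhx58 to Ifih1 differed by 1.18. For these 6 ratios the groups did not overlap and the exact permutation p was 0.1, or 0.117 adjusted over the 7 ratios, so none passed 0.05. These 6 differences kept their sign in each setting tried, but their sizes moved. Over 17 alternatives the difference was 0.27 to 0.86 for Ifih1 to Mavs and -0.53 to -0.27 for Ifih1 to Rigi. For Dhx58 to Ifih1 it was 0.44 to 1.56 over 16 alternatives. The ratio of Dhx58 to Rigi overlapped between the groups (-3.18 ± 0.09 with LP-184, -3.89 ± 0.88 with DMSO; exact permutation p = 0.4), and its difference of 0.71 turned to -0.02 on the log2(CPM + 1) scale.

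Genes listed as signalling downstream of MAVS went both ways. Of 27 listed, 26 were tested; 5 were higher and 12 lower, and the list's median log2 fold change was -0.14, where 38.3% of all genes tested were higher and 40.0% lower. The largest changes were those of Irf7, the interferon-induced transcription factor that acts beside IRF3, which rose by 4.05 ± 0.23 (SE, n = 3 each), Traf5, a signalling adaptor of the TRAF family, which fell by 1.56 ± 0.24, and Rela, the NF-κB subunit p65, which rose by 1.24 ± 0.04 on the log2 scale. Irf7 had 12.9, 11.5 and 12.7 CPM with LP-184, against 0.429, 0.652 and 0.963 CPM with DMSO. Over 17 alternative settings its log2 fold change lay between 3.00 and 4.31. Chosen after their values were seen, Tbk1, the kinase that MAVS activates, fell by 0.19 ± 0.04, and Irf3, its substrate, was at -0.08 ± 0.07 (limma adjusted p = 0.304). Sting1, the adaptor of the parallel DNA pathway, rose by 1.16 ± 0.09 and was likewise chosen after its values were seen. It stands in this list and is counted among the 5 higher genes. With the span trend removed 8 genes of this list were higher, Traf5 (95.4 kb) was at -0.74, Tbk1 at -0.12, and Irf3 passed the threshold as lower, at -0.41 (limma adjusted p = 4.97e-05). The shares of all genes given above belong to the fit without trend removal. Over 17 alternative settings, 4112 to 5195 of all genes were higher and 4222 to 4844 lower. Tbk1 was at -0.10 with median centring.

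Among 20 tested genes for activators and cofactors of the receptors (23 listed), 7 were higher and 9 lower, with a median of -0.09. Of all genes tested, 38.3% were higher and 40.0% lower. Rnf135, which encodes Riplet, the ligase that ubiquitinates RIG-I, rose by 1.21 ± 0.13 (SE, n = 3 each) on the log2 scale, with 14.7, 14.2 and 17.2 CPM in the LP-184 libraries and 6.33, 5.69 and 7.97 CPM in the DMSO libraries. Trim65, the ligase known to act on MDA5, rose by 0.75 ± 0.13 and Prkra, the activator of PKR known as PACT, fell by 0.55 ± 0.07; both were chosen after their values were seen. Trim65 was at 0.40 with the span trend removed.

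Of 31 tested genes listed as negative regulators (32 listed), 13 were higher and 9 lower, with a median of 0.10. The shares over all genes tested were 38.3% higher and 40.0% lower. The 3 largest changes were rises. Isg15, a ubiquitin-like modifier, rose by 4.01 ± 0.08, and Ube2l6, its conjugating enzyme, by 1.497 ± 0.11. The third was Rnf122, a ligase that targets RIG-I for degradation, at 1.51 ± 0.21 (SE, n = 3 each), with 5.34, 4.69 and 4.61 CPM in the LP-184 libraries and 1.39, 1.58 and 2.03 CPM in the DMSO libraries. Nlrx1, a mitochondrial protein that binds MAVS, rose by 0.85 ± 0.18 and was chosen after its values were seen.

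Genes that control cellular double-stranded RNA went both ways, 10 higher and 12 lower of 23 tested (24 listed), with a median of -0.14, beside 38.3% higher and 40.0% lower of all genes tested. Stau2, a double-stranded RNA-binding protein of RNA transport, fell by 3.11 ± 0.11 and Adarb1, the second editing enzyme, by 1.24 ± 0.13, while Trim28, a corepressor that silences endogenous retroviruses, rose by 1.00 ± 0.02 (SE, n = 3 each). Adarb1 had 5.55 ± 0.791 CPM with LP-184 and 13.2 ± 0.473 CPM with DMSO (SD, n = 3 each), the opposite direction to Adar. Stau2 (291 kb) and Adarb1 (128 kb) are long, and with the span trend removed they were at -0.79 and -0.06, the second no longer past the threshold. In that setting 7 genes of the list were lower, and the shares of all genes given above are not those of that setting.

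All 23 listed genes of PKR and translation control were tested, and 11 were higher and 10 lower, with a median of 0.06, beside the same 38.3% and 40.0% of all genes tested. Ddit3, which encodes the stress transcription factor CHOP, rose by 3.64 ± 0.07, Ppp1r15a, the phosphatase subunit that reverses eIF2α phosphorylation, by 2.73 ± 0.06, and Eif2b1, a subunit of the exchange factor that phosphorylated eIF2α blocks, by 1.34 ± 0.04 (SE, n = 3 each). Of the other 3 kinases of eIF2α, chosen after their values were seen, Eif2ak1 rose by 0.52 ± 0.06, Eif2ak3 fell by 0.56 ± 0.12, and Eif2ak4 was at -0.07 ± 0.08 (limma adjusted p = 0.444). With the span trend removed the log2 fold change of Eif2ak1 was 1.23, the log2 fold change of Eif2ak3 was -0.18 and no longer past the threshold (limma adjusted p = 0.136), and the log2 fold change of Eif2ak4 was 0.64 and past it (limma adjusted p = 9.82e-08). Quantile normalization put Eif2ak3 at -0.31.

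Of 10 genes listed with ZBP1 in necroptosis and death signalling, 8 were tested, and Ripk3 was not analysed here. Among those tested, 1 was higher and 4 lower, with a median of -0.14. Over all genes tested, 38.3% were higher and 40.0% lower. The gene counted higher was Tlr3, the endosomal sensor of double-stranded RNA, which rose by 0.70 ± 0.06. Tlr3 had 60.6 ± 4.97 CPM with LP-184 and 37.3 ± 3.33 CPM with DMSO (SD, n = 3 each). Mlkl, the executioner of necroptosis, fell by 0.89 ± 0.04 and Casp8, the protease that restrains it, by 0.61 ± 0.04 (SE). With the span trend removed Tlr3 was at 0.41 and Casp8 at -0.36. Leaving out LP-184 replicate 3 gave 2 genes of this list higher, as did quantile normalization, and a fit with no variance trend gave 2 lower. The shares of all genes given above do not belong to these settings. Prkra, Dhx9, Ripk1 and Fadd each stand in a pair of these lists and are counted in both.

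**Figure D5:**
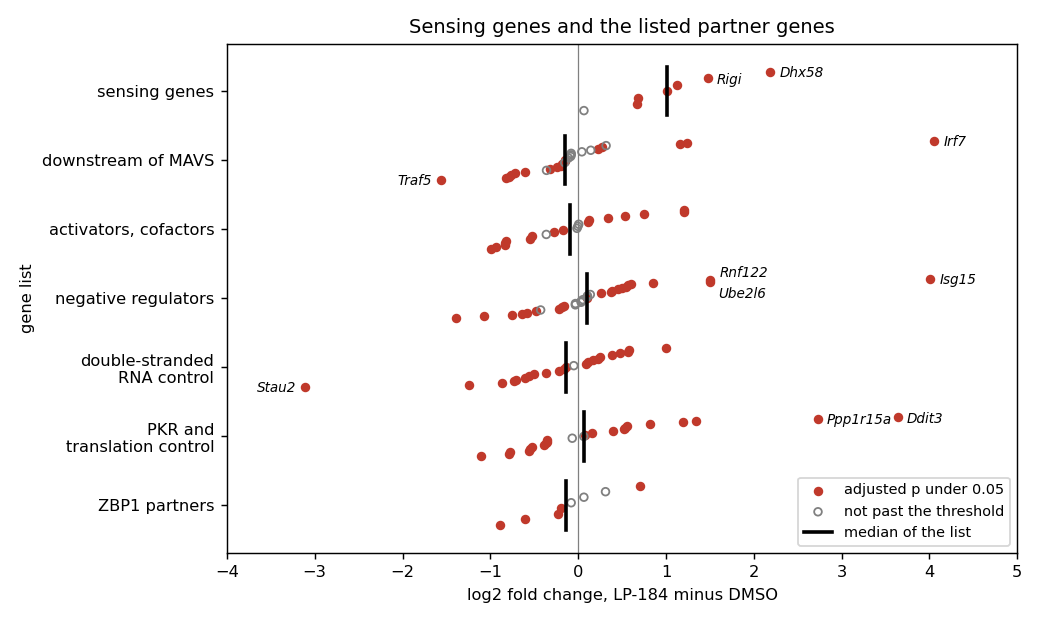
Log2 fold change, LP-184 minus DMSO, of the 7 sensing genes and of the tested genes of 6 partner lists; filled points passed an adjusted p of 0.05, open points did not, and thick bars are list medians. The sensing genes have a median of 1.01, and the medians of the partner lists lie between -0.14 and 0.10.

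By Euclidean distance of log2 CPM, centred on the DMSO mean, over the 6 libraries, the genes nearest to Rigi among 10776 candidates were Rgs2, a regulator of G protein signalling (distance 0.18), Rnd1 (0.20), and Ehf, an ETS family transcription factor of epithelia (0.20). Nearest to Adar were Kctd5 (0.08), Pias4, a SUMO ligase (0.09), and Dusp1, a phosphatase of MAP kinases (0.09). Nearest to Dhx58 were Btn1a1, a butyrophilin (0.34), Rab26os (0.42) and Tnfrsf9, a receptor of the TNF family (0.46). The 9 genes had log2 fold changes between 1.12 and 2.32. This distance picks genes that changed about as much as the sensing gene, so that range follows from the choice.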

How the data were processed

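Expression was compared in 3 LP-184 and 3 DMSO libraries of 4T1 cells. The authors deposited log2 CPM per gene and library; control columns were matched to DMSO samples by their number. Per the submitters' processing notes, fastp, STAR 2.7, featureCounts, Subread 2.0 and edgeR were used, with mm10 and hg38 as builds. Roles, annotation, gene filter and strand setting were not found in the sources used here. A second deposited table holds the authors' log2 fold changes with p-values from an unnamed test. A value of 0 reads stands at -3.34 in every library; without this offset, 100% of values were whole multiples of 1 read (relative tolerance 1e-06), which gave reads and CPM.

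Genes at or above log2 CPM 0 in 3 or more libraries were tested with limma 3.58.1 in R 4.3.3 (2 groups, trended empirical Bayes, two-sided, Benjamini-Hochberg over 11931 genes, threshold 0.05). Each log2 fold change is the LP-184 mean minus the DMSO mean; the authors' prior of about 2 reads makes those of low genes too small. Genes named beyond the 7 were the 3 called with the largest change in each partner list and the 3 nearest to each of the 3 sensing genes that changed most; exceptions are stated, and some genes that this rule picks are not reported here. Members and lists were chosen with earlier results of these data known. Spans and exon lengths came from GENCODE M21 (GRCm38, 1-based), matched by symbol for 12139 of 12656 genes (95.9%); the span trend was a loess curve (parameter 0.3). The procedure was tested on simulated counts. Python 3.11.15, pandas 2.3.3, numpy 2.4.6, scipy 1.17.1 and matplotlib 3.10.9 made summaries and figures.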

Additional observations from a re-analysis of the deposited data

How the results depend on the processing

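The settings changed one at a time were the scaling (median centring, quantile normalization), the pseudocount (log2(CPM + 1), log2(CPM + 0.1)), the filter (none, or log2 CPM 2), the variance model (no trend, robust, limma's voom), each library in turn, the replicate number as a block, and the span trend. Dhx58, Rigi, Ifih1, Adar, Trim25 and Mavs kept their direction and call in each setting that tested them; Dhx58 did not pass the stricter filter, so 5 members were called there. Leave-one-out log2 fold changes were 1.34 to 1.56 for Rigi, 0.94 to 1.08 for Ifih1, 1.81 to 2.49 for Dhx58, 0.64 to 0.71 for Mavs, 0.64 to 0.72 for Trim25, 1.10 to 1.15 for Adar and 0.04 to 0.10 for Eif2ak2. Eif2ak2 passed with median centring (0.15) and quantile normalization (0.14), which moved the median of all genes by 0.09 and 0.08. The log2 ratio of Dhx58 to Rigi turned to -0.019 with log2(CPM + 1), where low values weigh less by construction. Same-numbered libraries did not deviate together (correlations -0.05, -0.05 and -0.03), and the replicate block, with Rigi at 1.48 and Eif2ak2 at 0.07, changed no call among the members. Over all genes, 4112 to 5195 were higher and 4222 to 4844 lower. The log2 fold change of Irf3 was 0.0077 with median centring and 0.00397 with quantile normalization, and -0.41 and past the threshold with the span trend removed. The log2 fold change of Eif2ak4 was 0.020 with median centring, 0.023 with quantile normalization and 0.64 (past the threshold) with the span trend removed, and between -0.11 and 0.012 with a library left out. The cause of these changes was not tested. Depth limits Dhx58 most, with 45 reads over the DMSO libraries.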
